A study of Mus musculus with 14 samples.

Results

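The genes that carry out and regulate de novo lipogenesis (DNL) in the cytosol were followed through the loss of the 2 enzymes that supply cytosolic acetyl-CoA. The set comprised 10 of the 24972 genes in the deposited table, chosen by symbol: Acaca and Acacb, which encode the acetyl-CoA carboxylases; Fasn, fatty acid synthase; Me1, cytosolic malic enzyme; Mlycd, malonyl-CoA decarboxylase; the transcription factor genes Srebf1, Mlxipl and Mlx; and Thrsp and Mid1ip1, whose products modulate acetyl-CoA carboxylase. All 10 were present in the table. RNA was sequenced from a mouse hepatocellular carcinoma (HCC) line from tumours induced with diethylnitrosamine, in which both Acly alleles are flanked by loxP sites, after 24 h in DMEM with 10% calf serum. The 4 WT libraries came from the parental line carrying an empty LentiCRISPR v2 vector. The 4 ACLY KO libraries came from a clone made with adenoviral Cre and carrying the same empty vector. The 3 ACSS2 KO libraries came from 1 single-cell clone of the parental line edited with an Acss2 guide RNA, and the 3 DKO1 libraries from 1 single-cell clone of the ACLY KO cells edited with that guide. Each knockout was therefore represented by 1 clone, so genotype and clone cannot be told apart, and DKO1 also carries whatever the ACLY KO clone carries. Nothing in the labels says that replicates were separate cultures, so p-values measure only the spread between these libraries.

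ATP-citrate lyase (ACLY) cleaves exported citrate to acetyl-CoA, and acyl-CoA synthetase short-chain family member 2 (ACSS2) makes acetyl-CoA from acetate. Acetyl-CoA carboxylase commits acetyl-CoA to DNL by forming malonyl-CoA, which fatty acid synthase extends to palmitate with NADPH, part of it from malic enzyme. ACC1, the product of Acaca, works in the cytosol, whereas ACC2, the product of Acacb, sits at the mitochondrial outer membrane, where its malonyl-CoA restrains carnitine palmitoyltransferase 1, and malonyl-CoA decarboxylase turns malonyl-CoA back into acetyl-CoA. In liver, SREBP-1 (Srebf1) and ChREBP (Mlxipl) with its partner Mlx are the best known activators of these genes.

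Of the 10 genes, 8 passed the minimum mean of 10 normalized counts over the 14 libraries and were tested among 12711 genes, with differences given on the log2(normalized count + 1) scale ± SE and Benjamini-Hochberg adjusted p-values from limma over all genes tested. Mlxipl and Thrsp did not pass. A gene is called here at an adjusted p below 0.05. In ACLY KO against WT only Acacb was called, higher, 1 of 8 genes where 23.8% of all genes tested were called higher and 24.7% lower. In ACSS2 KO against WT only Me1 was called, lower, beside 15.1% of all genes higher and 11.0% lower. In DKO1 against WT, Acacb, Me1 and Mlycd were called higher and Srebf1 lower, beside 27.9% of all genes higher and 28.1% lower. In DKO1 against ACLY KO, Me1 and Mlycd were called higher and Acacb lower, beside 14.3% higher and 13.6% lower. In DKO1 against ACSS2 KO, Acacb and Me1 were called higher and Srebf1 lower, beside 25.9% higher and 27.8% lower. Except in ACLY KO against WT, where the count was lower, these counts are of the order that the shares over all genes give for 8 genes. That lower count was not tested. The median log2 difference of the 8 genes lay between -0.03 in ACLY KO against WT and 0.24 in DKO1 against WT. With the stricter limits of an absolute log2 difference above 1.5 and an adjusted p below 0.01, Acacb in ACLY KO against WT was the 1 call among the 8 genes. Over all genes these limits called 8.8% (ACLY KO), 2.42% (ACSS2 KO) and 9.84% (DKO1) against WT, 2.06% in DKO1 against ACLY KO and 11.3% in DKO1 against ACSS2 KO.

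**Figure D1:**
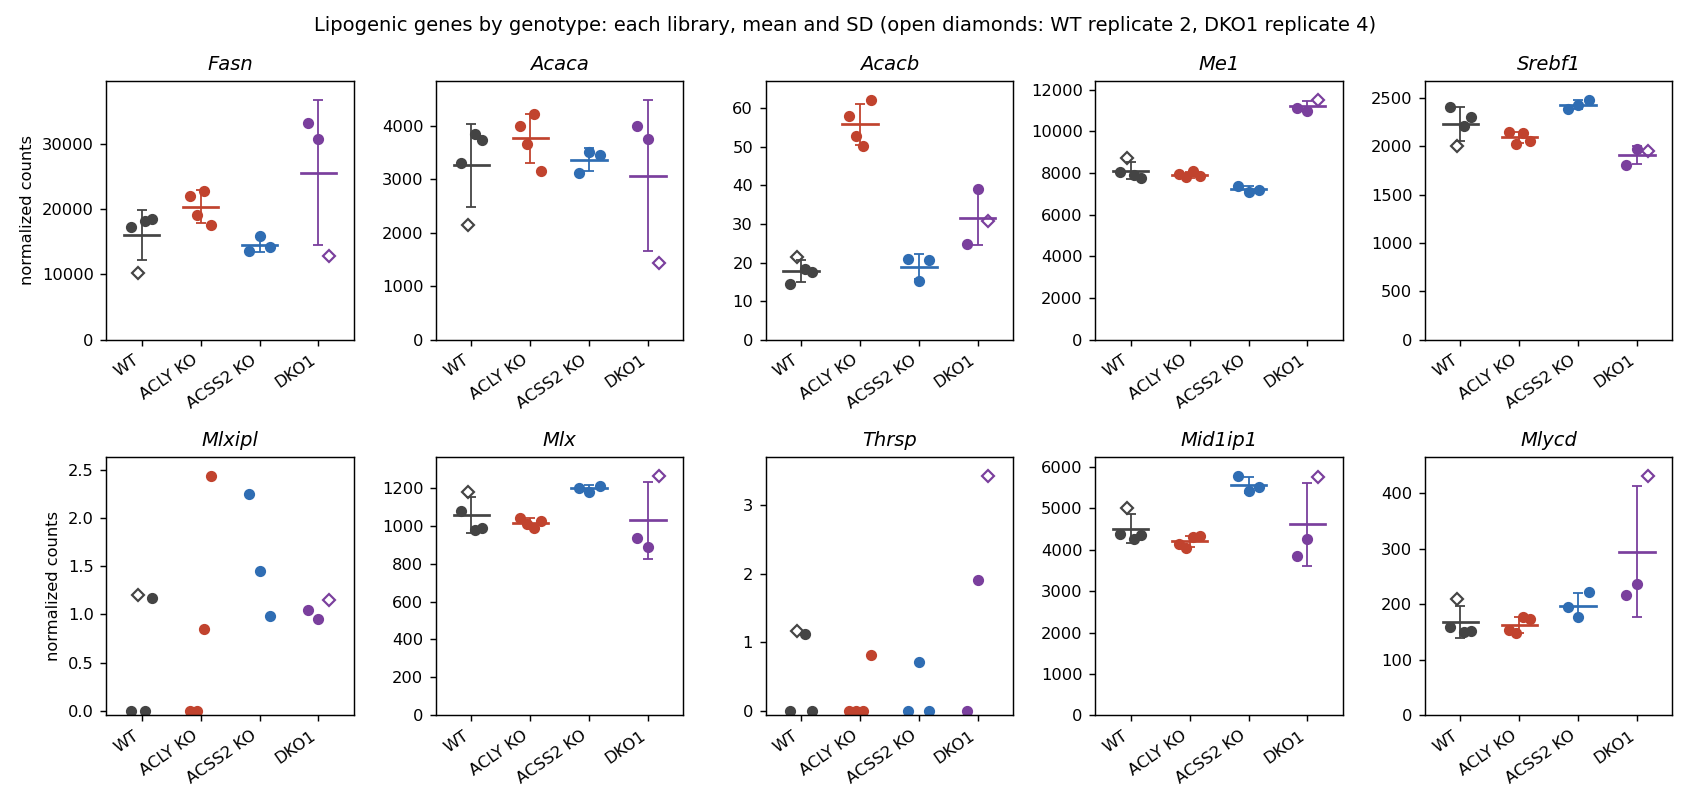
Normalized counts (y axes, from 0) of the 10 genes in each library by genotype (x axes). Each point is 1 library, lines and bars are the mean and SD of a genotype (left out for Mlxipl and Thrsp, which were near 0), and open diamonds mark WT replicate 2 and DKO1 replicate 4. The 4 ACLY KO points of Acacb lie between 50.3 and 62.1, above all other libraries, and the 3 DKO1 points of Me1 lie between 11006 and 11500, above all other libraries.

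**Figure D2:**
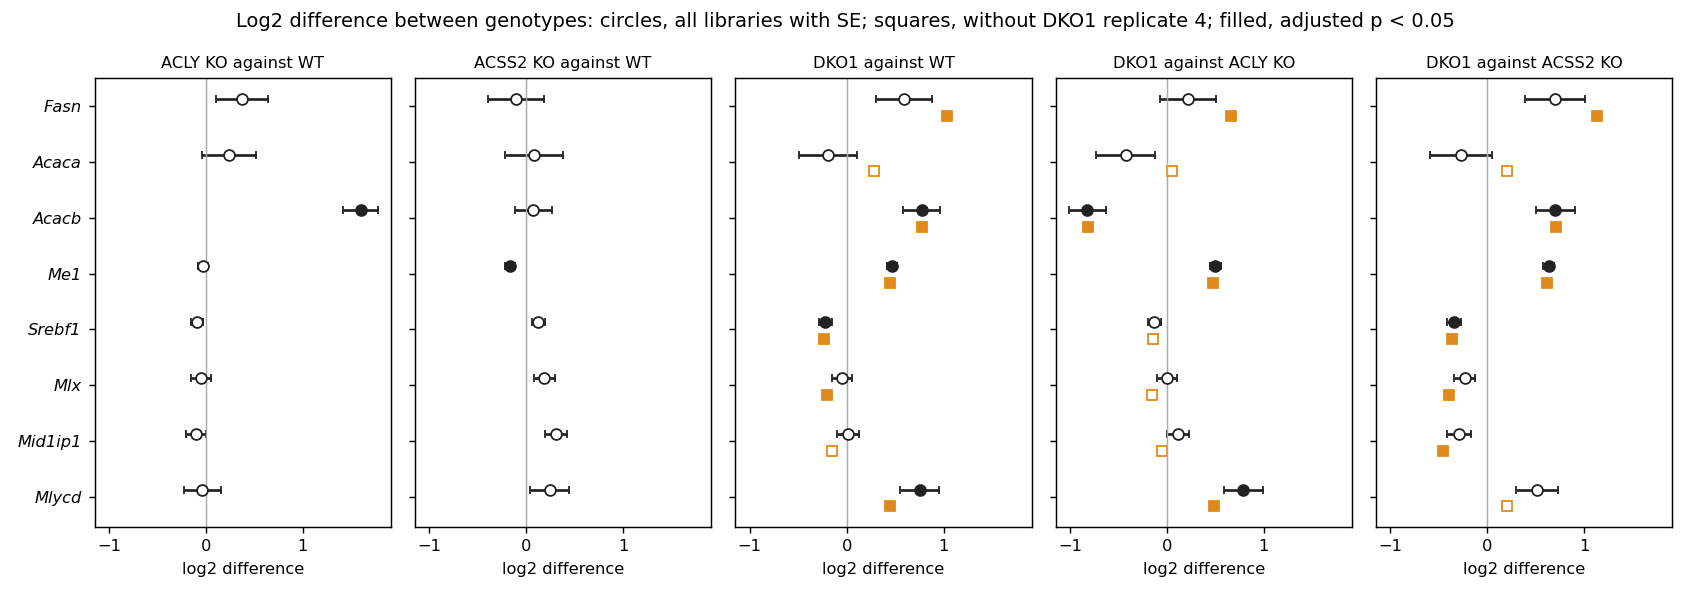
Log2 difference (x axes) of the 8 tested genes (y axis) in 5 comparisons. Circles are the values with all 14 libraries and bars their SE, squares are the values without DKO1 replicate 4, and filled symbols have an adjusted p below 0.05. Fasn moves from 0.59 to 1.03 in DKO1 against WT when that library is left out, while Me1 stays at 0.47 and 0.45.

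The labels were checked on the targeted genes. Where Acly was intact it stood at 6050 ± 423 normalized counts for WT (SD over 4 libraries) and 5684 ± 124 for ACSS2 KO (SD over 3). After Cre it stood at 1001 ± 56.1 for ACLY KO (SD over 4) and 946 ± 12.9 for DKO1 (SD over 3), with no overlap between the libraries with and without ACLY loss. Acss2 averaged 237 ± 11.5 (WT), 718 ± 56.7 (ACLY KO), 132 ± 4.88 (ACSS2 KO) and 535 ± 69.1 (DKO1), with SDs over the same libraries. It was therefore above WT in DKO1. Because a guide RNA edits a few bases and can leave the transcript in place, the level of Acss2 does not check the label of the edited clones.

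WT replicate 2 and DKO1 replicate 4 stood apart from the other libraries of their genotypes in a way that ran with transcript length. The median absolute log2 difference over the genes tested was 0.44 and 0.49 between DKO1 replicate 4 and the other 2 DKO1 libraries, against 0.09 between those 2. For WT replicate 2 it was 0.22, 0.28 and 0.28 to the other WT libraries, which were 0.07 to 0.12 apart. In DKO1 replicate 4 the tenth of genes with the shortest transcripts lay at a median of 1.0 log2 units above the other DKO1 libraries, and the tenth with the longest at -0.80. Spearman's rho between a gene's deviation from its group mean and its transcript length was taken across 12577 genes, as a description. It was -0.71 for DKO1 replicate 4 and -0.62 for WT replicate 2, and from -0.60 to 0.67 over the other 12 libraries. ACLY KO replicate 4 (-0.60) and ACSS2 KO replicate 1 (-0.55) were near WT replicate 2 by this measure. The DKO1 mean includes replicate 4, which bears on the rho of DKO1 replicates 1 and 3 (0.67 and 0.62). Fasn, Acaca and Acacb have the longest transcripts of the set, at 10.05, 9.513 and 8.788 kb (longest annotated transcript), and Mlx, Mid1ip1 and Mlycd are near 2 kb. Fasn deviated by -1.31 and Acaca by -1.43 in DKO1 replicate 4, beyond the median of their length class, whereas Acacb deviated by -0.02 only. Mlycd deviated by 0.93 where the median of its length class was 0.36. Whether transcript length or another property of this library set those values was not tested.

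**Figure D3:**
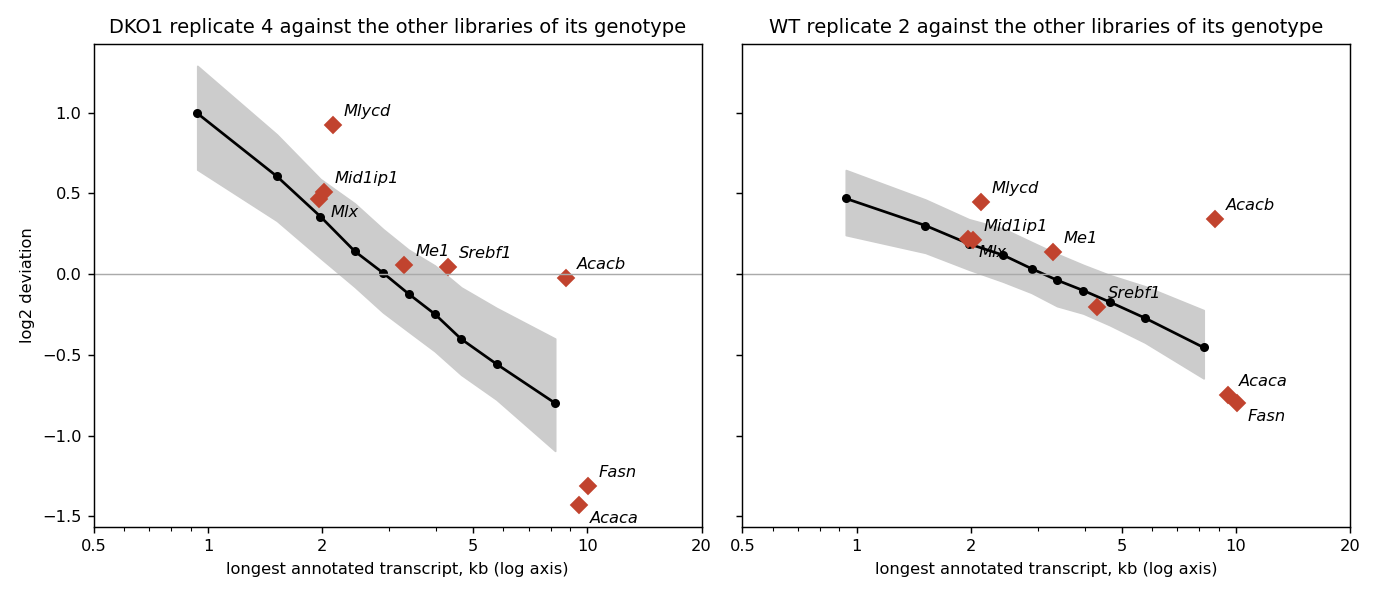
Log2 deviation (y axis) of DKO1 replicate 4 and of WT replicate 2 from the mean of the other libraries of the same genotype, against the length of the longest annotated transcript (x axis, log scale). The line joins the medians of 10 length classes, the grey band spans their quartiles, and diamonds are the 8 tested genes. In DKO1 replicate 4 the medians run from 1.0 for the shortest class to -0.80 for the longest, and Fasn and Acaca lie below that line.

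Promoter sequences of Fasn, Acacb, Me1 and Mlycd, the enzyme genes whose values in ACLY KO or DKO1 are described at most length, are given here, since the lipogenic activators act through short elements close to the start. Each window runs from 250 bases before to 50 bases after a RefSeq transcription start on GRCm38.p6, read 5′ to 3′ on the gene's strand, and all 10 genes had at least 1 such window. Capitals mark CCAAT boxes (CCAAT), the nuclear receptor core (AGGTCA) and GC boxes (GGGCGG), searched on both strands, with adjoining or overlapping matches run together. The E-box CACGTG and the sterol element core TCACNCCAC were also searched and had no match in these 4 windows. The windows are chr11:120824498-120824797 on the minus strand for Fasn, chr5:114165268-114165567 on the plus strand for Acacb, chr9:86695865-86696164 on the minus strand for Me1 and chr8:119394644-119394943 on the plus strand for Mlycd.
Fasn: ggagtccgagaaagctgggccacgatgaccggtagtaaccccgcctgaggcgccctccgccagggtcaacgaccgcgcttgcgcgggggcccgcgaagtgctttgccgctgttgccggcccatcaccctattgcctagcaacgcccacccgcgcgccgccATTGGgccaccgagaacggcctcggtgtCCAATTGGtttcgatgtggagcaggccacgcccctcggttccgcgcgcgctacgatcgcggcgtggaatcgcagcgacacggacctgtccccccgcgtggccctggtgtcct
Acacb: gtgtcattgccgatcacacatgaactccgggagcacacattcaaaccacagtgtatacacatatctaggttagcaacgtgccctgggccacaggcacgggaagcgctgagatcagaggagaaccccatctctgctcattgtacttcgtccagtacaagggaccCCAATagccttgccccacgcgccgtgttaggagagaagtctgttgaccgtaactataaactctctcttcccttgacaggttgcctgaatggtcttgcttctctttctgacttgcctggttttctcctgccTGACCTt
Me1: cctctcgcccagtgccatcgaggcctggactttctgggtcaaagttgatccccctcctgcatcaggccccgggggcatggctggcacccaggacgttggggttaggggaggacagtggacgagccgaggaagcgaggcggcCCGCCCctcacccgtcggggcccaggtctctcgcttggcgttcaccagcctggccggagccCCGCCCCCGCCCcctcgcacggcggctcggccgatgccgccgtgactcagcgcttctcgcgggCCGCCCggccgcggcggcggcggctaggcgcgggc
Mlycd: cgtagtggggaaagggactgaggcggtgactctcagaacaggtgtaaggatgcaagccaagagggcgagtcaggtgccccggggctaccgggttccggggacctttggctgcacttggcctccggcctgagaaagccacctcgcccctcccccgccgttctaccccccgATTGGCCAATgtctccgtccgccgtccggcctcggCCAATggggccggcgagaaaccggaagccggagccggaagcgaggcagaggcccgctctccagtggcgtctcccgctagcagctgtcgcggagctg
Fasn and Mlycd had 3 CCAAT boxes each, those of Fasn between 90 and 55 bases before the start. Me1 had 4 GC boxes in the window shown, and a second Me1 window, not shown, had 1 CCAAT box and 0 GC boxes. Acacb had 1 CCAAT box and, after the start, 1 nuclear receptor core. Its window opens at 114165268, inside the annotated gene, which opens at 114146535. The Acaca window likewise opens at 84195188, inside a gene that opens at 84129672. No window at the 5′ end of either annotated gene was among those searched for the 10 genes. Among the other genes, the Mlx window held 1 E-box and 2 CCAAT boxes, 1 of the Mlxipl windows held an E-box and another the sterol element core, and the Acaca window held none of the 5 motifs. Of 32851 RefSeq promoter windows of the same length, 37.4% held a CCAAT box, 35.7% a GC box, 16.3% a nuclear receptor core, 7.15% an E-box and 1.24% the sterol element core. These matches describe letters in the windows and say nothing of binding in these cells.

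The carboxylase genes differed from each other. Acacb (GRCm38, chr5:114146535-114250761, plus strand) was a low transcript in every genotype. Its normalized counts were 14.5, 21.4, 18.2 and 17.5 in WT replicates 1 to 4 and 58.1, 52.8, 50.3 and 62.1 in ACLY KO replicates 1 to 4. The ACLY KO libraries all lay above the WT libraries. The log2 difference was 1.59 ± 0.18 (3.02-fold, adjusted p = 6.4e-06). It stayed between 1.5 and 1.68 whichever single library was omitted.

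In ACSS2 KO, Acacb had 20.9, 15.1 and 20.8 normalized counts, within the range of WT (log2 difference 0.07 ± 0.19, adjusted p = 0.83). DKO1 had 24.9, 39.1 and 30.8, between WT and ACLY KO with no overlap with either. The log2 difference of DKO1 was 0.78 ± 0.19 against WT (adjusted p = 0.0037), 0.70 ± 0.20 against ACSS2 KO (adjusted p = 0.011) and -0.82 ± 0.19 against ACLY KO (adjusted p = 0.0063). The last was -0.63 (adjusted p = 0.088) once a smooth trend with transcript length was removed from each library, and -0.81 (adjusted p = 0.015) without DKO1 replicate 4. Against ACSS2 KO the call was lost without ACSS2 KO replicate 2 (0.56, adjusted p = 0.053). The order of the levels was thus WT and ACSS2 KO, which overlapped, then DKO1, then ACLY KO. On the log2 scale DKO1 lay 0.89 ± 0.27 below the sum of the 2 single losses (interaction, adjusted p = 0.026, where 12.0% of all genes were called above and 15.1% below that sum, and 4.61% at the stricter limits). That interaction was no longer called without ACLY KO replicate 4, ACSS2 KO replicate 1 or 4, or DKO1 replicate 1 (adjusted p between 0.052 and 0.068), and was -0.58 (adjusted p = 0.26) with the length trend removed.

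Acaca (GRCm38, chr11:84129672-84401651, plus strand), the cytosolic carboxylase gene, had 3308, 2157, 3849 and 3743 normalized counts across WT and 4009, 3671, 4227 and 3164 across ACLY KO. The ACSS2 KO libraries had 3127, 3522 and 3463, and the DKO1 libraries 4005, 3760 and 1441. The genotypes overlapped, and the 2 low values belonged to WT replicate 2 and DKO1 replicate 4. No comparison was called, with log2 differences from WT of 0.23 ± 0.28 (ACLY KO), 0.08 ± 0.30 (ACSS2 KO) and -0.19 ± 0.30 (DKO1). The sign of the DKO1 differences depended on replicate 4: without it Acaca was at 0.29 against WT (adjusted p = 0.20) and 0.05 against ACLY KO (adjusted p = 0.87). These SEs leave room for differences of the size seen for Me1.

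Per kb of transcript, the Acacb level was 0.00642 of the Acaca level in WT and 0.0163 in ACLY KO (means of the within-library ratios), so Acaca remained the main carboxylase transcript in each genotype. The ratio of normalized counts of Acacb to Acaca was 0.00593 ± 0.00266 in WT and 0.0151 ± 0.00325 in ACLY KO (SD, n = 4 each). The libraries did not overlap, and the exact two-sided permutation p was 0.029, the smallest that 4 against 4 libraries can give. The 2 transcripts shared none of 9583 stretches of 50 bases tested.

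Fasn (GRCm38, chr11:120805846-120824547, minus strand) was the most abundant of the 10 by normalized counts. It had 17220, 10292, 18108 and 18483 normalized counts in WT and 22055, 19057, 22827 and 17514 in ACLY KO. The ACSS2 KO libraries had 13627, 15811 and 14230. The DKO1 libraries had 33151, 30733 and 12846. The first 2 DKO1 libraries were the highest of all 14, while replicate 4 was below all but 1 of the others. With all libraries Fasn was called in no comparison, at 0.38 ± 0.27 in ACLY KO against WT (adjusted p = 0.27), 0.59 ± 0.29 in DKO1 against WT (adjusted p = 0.096), 0.22 ± 0.29 in DKO1 against ACLY KO (adjusted p = 0.60) and 0.70 ± 0.31 in DKO1 against ACSS2 KO (adjusted p = 0.073). Without WT replicate 2 the last was 0.70 (adjusted p = 0.047). Without DKO1 replicate 4 Fasn was called higher in all 3 DKO1 comparisons, at 1.03 (adjusted p = 0.00048), 0.66 (adjusted p = 0.021) and 1.14 (adjusted p = 0.00036) against WT, ACLY KO and ACSS2 KO. With all libraries and the length trend removed, the same differences were 0.80 (adjusted p = 4.9e-05), 0.43 (adjusted p = 0.012) and 1.02 (adjusted p = 9.9e-06), and ACLY KO against WT was 0.37 (adjusted p = 0.011).

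The ratio of Fasn to Acaca within a library, 2 transcripts of about the same length, separated DKO1 with all of its libraries included. The ratio of normalized counts was 5.21, 4.77, 4.70 and 4.94 in WT and 5.50, 5.19, 5.40 and 5.53 in ACLY KO. It was 4.36, 4.49 and 4.11 in ACSS2 KO and 8.28, 8.17 and 8.92 in DKO1, in which replicate 4 was the highest. DKO1 lay above every library of the other genotypes, and ACSS2 KO below every other library. The mean ratio of 8.46 ± 0.40 (SD, n = 3) in DKO1 stood beside 4.91 ± 0.22 in WT, 5.41 ± 0.15 in ACLY KO (SD, n = 4 each) and 4.32 ± 0.19 in ACSS2 KO (SD, n = 3). The exact two-sided permutation p was 0.057 for DKO1 against WT and against ACLY KO and for ACSS2 KO against WT, and 0.10 for DKO1 against ACSS2 KO, each the smallest that these library numbers allow, so none of these 4 could pass 0.05. ACLY KO and WT overlapped in this ratio (exact two-sided permutation p = 0.057 for 4 against 4 libraries). Adjusted over the 10 tests of both ratios, the lowest value was 0.114 (Benjamini-Hochberg on exact permutation p-values). A ratio shows that the transcripts changed unequally and not which of them changed.

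**Figure D4:**
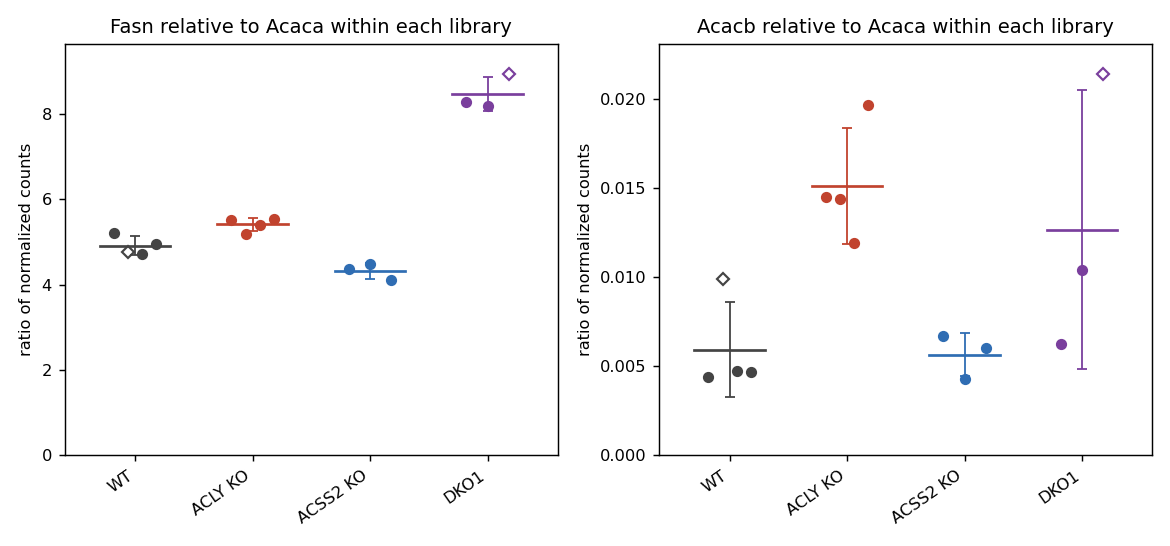
Ratio of normalized counts (y axes, from 0) of Fasn to Acaca and of Acacb to Acaca in each library by genotype (x axes). Points are libraries, lines and bars the mean and SD, and open diamonds WT replicate 2 and DKO1 replicate 4. The DKO1 points of the Fasn ratio lie between 8.17 and 8.92 with replicate 4 the highest, while the other genotypes lie between 4.11 and 5.53.

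With all libraries included, genes near Fasn on chromosome 11 also stood higher in DKO1. The 20 tested genes nearest to Fasn, all within 0.235 Mb, had a median log2 difference of 0.48 in DKO1 against WT, 0.50 against ACLY KO and 0.40 against ACSS2 KO, where the 1045 tested genes of chromosome 11 had 0.22, 0.03 and 0.09. In ACLY KO against WT the same neighbours were at 0.01. Around Acaca, on the same chromosome, the 20 nearest genes were at -0.16 in DKO1 against WT, and around Acacb on chromosome 5 they were at -0.04 in ACLY KO against WT, where Acacb itself was at 1.59. These medians include DKO1 replicate 4, whose values ran with transcript length, and they were not taken without that library. Its part in the neighbour medians, and that of a local change in the DKO1 clone in the Fasn values, was not tested.

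Me1 (GRCm38, chr9:86581371-86695953, minus strand), which makes NADPH in the cytosol while turning malate to pyruvate, was higher in DKO1 than in each of the other genotypes. The WT libraries had 8070, 8711, 7920 and 7760 normalized counts and the ACLY KO libraries 7935, 7797, 8125 and 7852. The ACSS2 KO libraries had 7375, 7098 and 7194, and the DKO1 libraries 11106, 11006 and 11500. DKO1 lay above every other library and ACSS2 KO below every other library. The log2 difference of DKO1 was 0.47 ± 0.05 against WT (adjusted p = 9.2e-06), 0.50 ± 0.05 against ACLY KO (adjusted p = 2.4e-05) and 0.63 ± 0.06 against ACSS2 KO (adjusted p = 9.9e-07). Whichever library was omitted, the first stayed between 0.45 and 0.50. ACLY KO did not differ detectably from WT, at -0.03 ± 0.05 (adjusted p = 0.63). ACSS2 KO was lower than WT by a small step of -0.17 ± 0.05 (adjusted p = 0.037), a call that was lost without any 1 library of ACLY KO or ACSS2 KO or without WT replicate 1, 2 or 3 (adjusted p between 0.052 and 0.12). With libraries scaled to equal totals that difference was -0.061 (adjusted p = 0.49), and with quantile normalization -0.036 (adjusted p = 0.72). DKO1 exceeded the sum of the single losses by 0.67 ± 0.08 (interaction, adjusted p = 3.6e-05), a difference to which the step down in ACSS2 KO contributed. The 20 tested genes nearest to Me1, spread over 2.66 Mb, had, with all libraries, a median of 0.27 in DKO1 against WT and 0.04 against ACLY KO.

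Mlycd (GRCm38, chr8:119394878-119411102, plus strand) had 158, 210, 150 and 153 normalized counts across WT and 153, 148, 177 and 173 across ACLY KO. The ACSS2 KO libraries had 195, 176 and 221, and the DKO1 libraries 218, 236 and 431. All 3 DKO1 libraries lay above all WT and ACLY KO libraries, and the value of 431 was that of replicate 4. The log2 difference of DKO1 was 0.75 ± 0.20 against WT (adjusted p = 0.0070) and 0.79 ± 0.20 against ACLY KO (adjusted p = 0.012). Without replicate 4 the differences were smaller by a factor of more than 1.5 on the log2 scale and still called, at 0.44 (adjusted p = 0.015) and 0.48 (adjusted p = 0.020). Against ACSS2 KO, with which the DKO1 libraries overlapped, it was 0.51 ± 0.22 (adjusted p = 0.064), and 0.20 without replicate 4 (adjusted p = 0.26). Without DKO1 replicate 1 or 3 it was 0.69 or 0.64 and called (adjusted p = 0.019 and 0.043). ACLY KO and WT were at -0.04 ± 0.19 from each other (adjusted p = 0.90).

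Among the regulators, Srebf1 (GRCm38, chr11:60199089-60222581, minus strand) had 2410, 2006, 2207 and 2304 normalized counts in WT and 2148, 2025, 2141 and 2058 in ACLY KO. It had 2386, 2425 and 2479 in ACSS2 KO and 1806, 1978 and 1953 in DKO1. DKO1 lay below every other library. The log2 difference of DKO1 was -0.22 ± 0.07 against WT (adjusted p = 0.013), -0.35 ± 0.07 against ACSS2 KO (adjusted p = 0.0011) and -0.13 ± 0.07 against ACLY KO (adjusted p = 0.17). The first was -0.14 (adjusted p = 0.11) and the second -0.18 (adjusted p = 0.060) with the length trend removed, so neither call held there. Without DKO1 replicate 1 the first was -0.18 (adjusted p = 0.051). Rai1 overlaps Srebf1 on the opposite strand with a mean of 1582 normalized counts, and Psmc3ip overlaps Mlx likewise with 543. The counting of strands was not given in the sources used here, so reads of these pairs may not be separated, and isoforms of Srebf1 are not told apart.

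Mlxipl and Thrsp were all but silent. Mlxipl was between 0 and 2.44 normalized counts in all 14 libraries and Thrsp between 0 and 3.43, levels of the order of 3 reads or fewer, and no fold is given for them. Neither was called in any comparison when the minimum on low values was dropped. Mlx (GRCm38, chr11:101087277-101092207, plus strand), the dimer partner of both ChREBP and MondoA, was well expressed, at 1054 ± 95.0 (WT) and 1015 ± 22.1 (ACLY KO) normalized counts (SD over 4 libraries each), 1196 ± 15.7 (ACSS2 KO) and 1029 ± 203 (DKO1) (SD over 3 each). It was called in no comparison with all libraries. Without DKO1 replicate 4, whose 1261 was the highest value of the gene, Mlx was called lower in DKO1 against WT, at -0.20 (adjusted p = 0.026), and against ACSS2 KO, at -0.39 (adjusted p = 0.00065), and higher in ACSS2 KO against WT, at 0.19 (adjusted p = 0.033).

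Mid1ip1 (GRCm38, chrX:10715013-10719690, plus strand), which promotes polymerisation of ACC1 and is the paralogue of Thrsp, had 4393, 5021, 4263 and 4364 normalized counts in WT and 4136, 4051, 4299 and 4346 in ACLY KO. The ACSS2 KO libraries had 5786, 5411 and 5520, above all WT and ACLY KO libraries. DKO1 had 3840, 4266 and 5753 and overlapped all 3 other genotypes. ACSS2 KO against WT was at 0.31 ± 0.11 (adjusted p = 0.060) with all libraries, 0.36 (adjusted p = 0.039) without WT replicate 2, 0.31 (adjusted p = 0.028) without DKO1 replicate 1 and 0.31 (adjusted p = 0.0016) without DKO1 replicate 4. DKO1 against ACSS2 KO was at -0.29 ± 0.12 (adjusted p = 0.054), at -0.29 (adjusted p = 0.047) without WT replicate 2 and at -0.46 (adjusted p = 0.00014) without DKO1 replicate 4. Without that library the set had 4 genes higher and 2 lower in DKO1 against WT, 3 higher and 1 lower against ACLY KO, and 3 higher and 3 lower against ACSS2 KO. The shares over all genes were then 30.2% and 31.1%, 16.1% and 15.3%, and 27.8% and 29.2%, in the same order.

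The genes around the set were described from lists chosen by function, with counts of genes called out of those tested. The median log2 difference of all genes tested was -0.0067 in ACLY KO against WT and -0.0052 in DKO1 against ACLY KO, beside which the list medians stand. The list counts stand beside 23.8% of all genes higher and 24.7% lower in ACLY KO against WT, and 14.3% higher and 13.6% lower in DKO1 against ACLY KO. These shares were 30.1% and 31.5%, and 16.1% and 15.3%, without DKO1 replicate 4. Cells keep SREBP-1 as a membrane-bound precursor that SCAP carries to its proteases, MBTPS1 and MBTPS2, and that the INSIG proteins retain. The list held the genes of this machinery and Srebf2, the gene of SREBP-2. Of its 6 genes, 2 were higher and 0 lower in ACLY KO against WT, 3 higher and 0 lower in DKO1 against WT, and 3 higher and 2 lower in DKO1 against ACLY KO, with list medians of 0.05, 0.10 and 0.17. Over all genes 27.9% were higher and 28.1% lower in DKO1 against WT, with a median of 0.0035. The ACLY KO count fell to 1 without WT replicate 2 or ACLY KO replicate 1, 2 or 3, where Mbtps1 was no longer called (adjusted p between 0.052 and 0.070). Insig1, itself a target of SREBPs, had 3790, 4022, 3924 and 3950 normalized counts across WT and 5275, 4332, 4614 and 4563 across ACLY KO. The ACSS2 KO libraries had 2454, 2552 and 2321, and the DKO1 libraries 7598, 7387 and 6810. The 4 genotypes did not overlap, in the order ACSS2 KO, WT, ACLY KO and DKO1. Against WT, Insig1 was at 0.26 ± 0.07 for ACLY KO (adjusted p = 0.0058), -0.68 ± 0.07 for ACSS2 KO (adjusted p = 1.5e-05) and 0.89 ± 0.07 for DKO1 (adjusted p = 3.4e-07). Between DKO1 and ACLY KO, Insig2 rose by 0.35 ± 0.06 (adjusted p = 0.00074). Mbtps1 fell by 0.40 and Srebf2 by 0.48 on the log2 scale in the same comparison (adjusted p = 0.015 and 0.036), and Mbtps2 rose by 0.51 (adjusted p = 0.026). Without DKO1 replicate 4 Srebf2 was at -0.26 and not called (adjusted p = 0.11), which left 3 higher and 1 lower, and Mbtps1 was at -0.25 (adjusted p = 0.027). Scap was at -0.10 ± 0.06 in ACLY KO against WT (adjusted p = 0.21).

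Of 8 tested coactivators and factors that act on lipogenic promoters, 1 was higher and 1 lower in ACLY KO against WT, and 0 higher and 1 lower in DKO1 against ACLY KO (list medians -0.10 and -0.09). Ppargc1b, a coactivator of SREBP-1, was the higher gene, at 1.70 ± 0.15 (adjusted p = 6.6e-07), and the lower gene of DKO1 against ACLY KO, at -0.52 ± 0.16 (adjusted p = 0.025). Nfyb, a subunit of the factor that binds CCAAT boxes, fell by 0.57 in ACLY KO (adjusted p = 3.4e-06), while Nfya, another subunit, was at -0.22 ± 0.13. The ACLY KO count without DKO1 replicate 4 was 1 higher and 3 lower, with Nfya at -0.22 and Usf2, a factor that binds E-boxes, at -0.20 then called (adjusted p = 0.020 and 0.017). Of 5 tested genes of the Mondo family and its partners, 1 was higher and 2 lower in ACLY KO against WT, and 1 higher and 0 lower in DKO1 against ACLY KO (list medians -0.15 and 0.0015). Mxd4, an antagonist of MYC, rose by 0.52 in ACLY KO against WT (adjusted p = 0.029) and by a further 1.19 in DKO1 against ACLY KO (adjusted p = 0.00064). Max and Mnt fell in ACLY KO, by 0.41 and 0.50 (adjusted p = 0.0016 and 0.0028). Mlxip, which encodes MondoA, was at -0.15 ± 0.24 (adjusted p = 0.65). DKO1 against ACLY KO had, without DKO1 replicate 4, 2 higher and 1 lower, with Mnt at 0.36 and Max at -0.26 then called (adjusted p = 0.0030 and 0.014).

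Of 6 tested genes known to respond to ChREBP or MondoA, 2 were higher and 3 lower in ACLY KO against WT, 2 higher and 1 lower in ACSS2 KO against WT, and 0 higher and 3 lower in DKO1 against WT (list medians 0.02, 0.35 and -0.31). DKO1 had 0 higher and 3 lower against ACLY KO and 0 higher and 4 lower against ACSS2 KO (list medians -0.39 and -0.74). In the interaction 0 were above and 4 below the sum of the single losses (list median -0.76). Over all genes 15.1% were higher and 11.0% lower in ACSS2 KO against WT, with a median of 0.0013. In DKO1 against ACSS2 KO 25.9% were higher and 27.8% lower, with a median of 0.0057. In the interaction 12.0% were above and 15.1% below, with a median of -0.0085. Leaving out DKO1 replicate 4 gave 4 lower against ACLY KO, with Khk at -1.17 then called (adjusted p = 0.00031), and 6 lower against ACSS2 KO, where 29.2% of all genes were lower. Txnip and Arrdc4, arrestin-like genes that restrain glucose uptake, fell by 1.02 and 0.86 in ACLY KO (adjusted p = 2.6e-08 and 0.00042), and Txnip was at -0.21 in ACSS2 KO (adjusted p = 0.035) and -1.26 in DKO1 against WT (adjusted p = 8.2e-09). Pklr, pyruvate kinase of the liver type, rose by 1.17 in ACLY KO against WT (adjusted p = 1.3e-05) and fell by 1.28 from ACLY KO to DKO1 (adjusted p = 4.7e-05). Khk, fructokinase, rose by 0.79 in ACLY KO (adjusted p = 0.019). Tkfc, which acts after it in fructose breakdown, fell by 0.31 (adjusted p = 0.00062) and by a further 0.35 in DKO1 against ACLY KO (adjusted p = 0.0012).

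The 11 genes of carboxylase control included 3 higher and 1 lower in ACLY KO against WT, and 2 higher and 4 lower in DKO1 against ACLY KO (list medians 0.20 and -0.23). With the length trend removed the counts were 4 higher and 3 lower, and 2 higher and 7 lower. They were 4 higher and 1 lower, and 1 higher and 4 lower, without DKO1 replicate 4. Hlcs, the ligase that attaches biotin to carboxylases, rose by 1.01 ± 0.15 in ACLY KO (adjusted p = 0.00010) and fell by 0.54 from ACLY KO to DKO1 (adjusted p = 0.028), or was at -0.25 (adjusted p = 0.023) without DKO1 replicate 4. Ppp2r5b, a regulatory subunit of protein phosphatase 2A, rose by 1.1 ± 0.07 in ACLY KO (adjusted p = 3.8e-08). Trib3, a stress-induced pseudokinase, rose against WT in all 3 clones, by 0.78 (ACLY KO), 1.98 (ACSS2 KO) and 1.43 (DKO1) (adjusted p = 0.00023, 6.2e-07 and 2.1e-06). Of the subunits of AMP-activated protein kinase, which phosphorylates and restrains the carboxylases, Prkab1 fell by 0.30 in ACLY KO (adjusted p = 0.00012) and Prkaa1 decreased by 0.49 from ACLY KO to DKO1 (adjusted p = 0.0065). Prkaa1 was at -0.32 (adjusted p = 0.0047) without DKO1 replicate 4, and its call was lost in a fit on the compared groups alone (adjusted p = 0.052).

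Of 11 genes that supply substrate and NADPH, Acly and Acss2 among them, 5 were higher and 3 lower in ACLY KO against WT, and 5 higher and 3 lower in DKO1 against ACLY KO (list medians 0.11 and 0.22). These counts include the targeted genes. Acly was among the lower genes of ACLY KO, at -2.59. Acss2 was among the higher genes of ACLY KO, at 1.59, and the lower genes of DKO1 against ACLY KO, at -0.43 (adjusted p = 0.0044). Besides Me1, DKO1 stood above ACLY KO in Pgd, 6-phosphogluconate dehydrogenase, by 0.78 ± 0.10 (adjusted p = 8.7e-05), in Idh1, the cytosolic NADP-dependent isocitrate dehydrogenase, by 0.73 ± 0.08 (adjusted p = 3.0e-05), in Me3, a mitochondrial malic enzyme, by 0.56 ± 0.16 (adjusted p = 0.021) and in Slc25a1, the mitochondrial citrate carrier, by 0.42 ± 0.09 (adjusted p = 0.0042). Without DKO1 replicate 4 Me3 was at 0.42 and not called (adjusted p = 0.071). G6pdx, the first enzyme of the pentose phosphate pathway, went the other way. It had 827, 748, 871 and 778 normalized counts in ACLY KO and 596, 579 and 480 in DKO1, a difference of -0.55 ± 0.10 (adjusted p = 0.0012). In ACSS2 KO it was 0.69 ± 0.10 above WT (adjusted p = 0.00020). Mdh1, cytosolic malate dehydrogenase, rose by 0.87 in ACLY KO against WT (adjusted p = 5.0e-05).

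Of 10 tested genes downstream of palmitate or in the mitochondrial synthesis pathway, 3 were higher and 4 lower in ACLY KO against WT, and 0 higher and 3 lower in DKO1 against ACLY KO (list medians -0.20 and -0.12). The latter 3 were Fads1, Gpam and Dgat2, none of which was called without DKO1 replicate 4, where 0 of the 10 were called (0 higher and 0 lower) in DKO1 against ACLY KO, and 3 higher and 6 lower in ACLY KO against WT. Scd1, which desaturates stearate, was at -2.82 ± 0.15, -2.85 ± 0.16 and -2.81 ± 0.16 against WT in the ACLY KO, ACSS2 KO and DKO1 clones (adjusted p = 7.6e-09, 9.6e-08 and 1.7e-08). These comparisons share the WT libraries. Scd1 was a low transcript, with 126 to 160 normalized counts in WT and 15.5 to 22.8 in the clones. Scd2, another stearoyl-CoA desaturase gene of this list, ran from 28222 to 32682 in WT and from 18728 to 29679 in the clones. Elovl6, the elongase of palmitate, rose by 0.71 in ACLY KO (adjusted p = 0.00058), and Fads1, a desaturase of longer chains, fell by 0.38 (adjusted p = 0.0034). The Fads1 call was lost with equal library totals (-0.27, adjusted p = 0.078) and with quantile normalization (-0.25, adjusted p = 0.058). Gpam, which starts glycerolipid synthesis, fell by 0.31 (adjusted p = 0.035), and Dgat2, which completes triglycerides, rose by 0.66 (adjusted p = 0.0015).

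The hepatocyte markers differed widely in level. Cps1 and Apoa1 were below 3 normalized counts in every library, and Alb averaged between 11.3 in DKO1 and 134 in ACSS2 KO, while the keratin gene Krt8 averaged between 18235 and 26051. Hnf4a, a defining factor of hepatocytes, averaged 172 normalized counts across WT and 28.7 (ACLY KO), 39.8 (ACSS2 KO) and 22.4 (DKO1) in the clones. Foxa2, another hepatocyte factor, ran from 1121 to 1547 in WT, from 330 to 384 in ACLY KO, from 1201 to 1329 in ACSS2 KO and from 297 to 430 in DKO1. Apob ran from 94.3 to 387 in DKO1 and from 25.2 to 138 in the other libraries. Afp ran from 114 to 343 in ACLY KO and DKO1 and from 20.1 to 49.3 in WT and ACSS2 KO. The hepatocyte markers did not move together in ACSS2 KO. Alb ran from 129 to 137 there and from 27.7 to 36.9 in WT, and Cebpa from 95.1 to 112 and from 42.6 to 73.3. Ttr was also above all WT libraries in ACSS2 KO, whereas Hnf4a, Apob, Krt8 and Krt18 were below all of them. The other hepatocyte markers overlapped between ACSS2 KO and WT. Of the 13 hepatocyte markers, 9 averaged 10 or more normalized counts in WT, ACLY KO and DKO1 and 11 did so in ACSS2 KO. Their summed level ran from 49314 to 66710 across WT, from 35144 to 38333 across ACLY KO, from 42398 to 45479 across ACSS2 KO and from 26677 to 45799 across DKO1. Krt8 and Krt18 made up 96.1% to 98.3% of that sum, and the other 11 markers summed to 1561 to 1932 (WT), 619 to 722 (ACLY KO), 1596 to 1724 (ACSS2 KO) and 894 to 996 (DKO1). The fibroblast markers summed to 2185 to 2496 (WT), 3556 to 3916 (ACLY KO), 5300 to 6233 (ACSS2 KO) and 2102 to 2219 (DKO1). The largest part was Acta2 in ACSS2 KO (3868 to 4747) and Col1a1 in ACLY KO (2260 to 2651). Col1a2 and Col3a1 were instead highest in DKO1, with Col3a1 at 445 to 711 there and 73.4 to 87.4 in WT. The adipocyte markers summed to under 30 in every library, with Plin1 at 0 in all 14. The endothelial markers summed to at most 90.6 and the immune markers to at most 132. The bile duct markers summed to 35800 to 48432.5 (WT), 30250 to 32241 (ACLY KO), 40073 to 43264 (ACSS2 KO) and 44275 to 70631 (DKO1). Among them Spp1 was highest in DKO1, at 33081 to 52354.5, while Krt7, Krt19 and Sox9 were below all WT libraries there. Krt19 had 3909 to 7178 in DKO1 and 9093 to 15008 in WT. The part of these marker levels in the values above was not tested.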

How the data were processed

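Poly(A) RNA of 14 libraries was sequenced single-end with a directional kit. Per the methods and the submitters' processing notes, the authors aligned reads with STAR to the mouse genome (GRCm38, mm10) and normalized with DESeq2 (1.0.1 in the notes). The counting step, annotation and strand setting are not given in the sources used here. The deposited values are normalized gene-level counts, a signal that is no longer whole numbers, with totals of 23565707 to 26946164 per library. The most frequent low value put the reads behind them at about 19149700 to 33616000, but 60.5 to 90.5% of low values lay within 2% of whole multiples, so whole reads were not recovered and a count test was not used. Depth is therefore an estimate, and intervals cover the spread between libraries only.

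Values were tested as log2(value + 1) with limma 3.58.1 (R 4.3.3; intensity trend; all 14 libraries; mean of at least 10; Benjamini-Hochberg over 12711 genes), after tests on simulated data. Ratios of genes were compared with exact two-sided permutation tests. The ratio of Thrsp to Mid1ip1 was planned and not given, since Thrsp was near 0. Of the table's rows, 26 carried date-like symbols and stayed unnamed. Gene positions and lengths came from GENCODE vM21 (GRCm38) and promoters from RefSeq (GRCm38.p6). The genes and lists were chosen with earlier results of these data known. The text names all 10 genes, Acly and Acss2, and from each list up to 4 genes with the smallest adjusted p in ACLY KO against WT and in DKO1 against ACLY KO. Scd2 is named outside that rule, for its level beside Scd1. Alternatives covered the added constant, filter, scaling, length trend, replicate block, call limits and left-out libraries.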

Additional observations from a re-analysis of the deposited data

Results flagged for a closer look

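In WT, 1 library lay far from the other 3 for 2 genes, and both times it was replicate 2. For Fasn, the gap from its 10292 normalized counts to the next library took up 0.879 of the range of the genotype, and for Mlycd the gap from its 210 took up 0.845. The 16 such comparisons covered the 8 tested genes in WT and ACLY KO, which have 4 libraries each. ACSS2 KO and DKO1, with 3 libraries each, were not screened. Of such comparisons chance would flag about 1 in 20, and genes of the same library are not independent.

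The effects of losing ACLY and ACSS2 did not add up on the log2 scale for Acacb, which lay at -0.89 from the sum of the single losses (limma interaction, adjusted p = 0.026), and for Me1, which lay at 0.67 from that sum (adjusted p = 3.6e-05). For Acacb the interaction was -0.58 (adjusted p = 0.26) with the length trend removed. These 2 genes are the calls with all libraries. Without DKO1 replicate 4 the interaction was also called for Fasn (0.76, adjusted p = 0.038) and Mid1ip1 (-0.36, adjusted p = 0.0095). It was called there for Mlx (-0.34, adjusted p = 0.015) and Srebf1 (-0.27, adjusted p = 0.038) too. Over all genes 15.6% were then above and 18.1% below the sum. Fasn, Mlx and Mid1ip1 were also called with the length trend removed.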

How the results depend on the processing

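The Acacb, Me1 and Mlycd calls of DKO1 against ACLY KO and against WT rested on 3 libraries of 1 clone and, for Acacb, on low values. Whether replicate numbers pair the libraries could not be decided. Same-numbered libraries of different genotypes deviated with r from -0.43 to 0.45, above 0.1 in 5 of 18 pairs. These deviations keep the trend with transcript length, and WT replicate 2 with DKO1 replicate 4 had an r of 0.62. With a replicate block, the Me1 call in ACSS2 KO was lost (0 genes called there) and the log2 difference of Acacb relative to Acaca, ACLY KO against WT, was 1.36 with an exact permutation p of 0.125, the smallest for 4 pairs. It also took the calls of Mxd4 in ACLY KO and Txnip in ACSS2 KO against WT (adjusted p = 0.055 and 0.058) and of Fads1 and Dgat2 in DKO1 against ACLY KO (0.051 and 0.096), and changed no other call among the 8 genes or those named. No ratio of Thrsp to Mid1ip1 was computed.

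Genes called of 8 moved as follows, and the cause was not tested. In ACLY KO against WT there were 0 with a mean of at least 50, a limit that removes Acacb, and 3 with the length trend removed, with or without the block. In ACSS2 KO against WT there were 0 with no filter or at the stricter limits, 3 with equal library totals or with the length trend removed, and 2 with trend removal and block. The stricter limits called 0 in each DKO1 comparison and in the interaction. DKO1 against ACSS2 KO had 6 with equal totals or with the length trend removed, with or without the block. The interaction had 1 with no filter or a mean of at least 50, 5 with equal totals and 4 with the length trend removed, with or without the block. With the length trend removed, 28.8% of all genes were higher and 32.5% lower in ACLY KO against WT. The shares were 17.2% and 24.8% in ACSS2 KO against WT, 32.8% and 30.6% in DKO1 against ACSS2 KO, and 21.3% and 18.2% in the interaction. Leaving out 1 library, or both WT replicate 2 and DKO1 replicate 4 (an alternative chosen after seeing the data, as was trend removal with block), gave 1 to 2 calls in ACLY KO and 0 to 5 in ACSS2 KO against WT, 3 to 6, 3 to 6 and 2 to 6 in DKO1 against WT, ACLY KO and ACSS2 KO, and 1 to 6 in the interaction. The highest counts were reached without both, and those of DKO1 against WT and ACSS2 KO and of the interaction also without DKO1 replicate 4 alone. Among the other genes named, Mxd4, Khk and Gpam in ACLY KO against WT, Txnip in ACSS2 KO against WT, and Srebf2, Mbtps2, Ppargc1b, Hlcs, Me3, Gpam, Fads1 and Dgat2 in DKO1 against ACLY KO each lost their call without at least 1 single library, at adjusted p up to 0.15. The Srebf2, Txnip and Gpam (ACLY KO) calls were also lost with equal totals (adjusted p = 0.055, 0.34 and 0.27) and with quantile normalization (0.052, 0.061 and 0.052), as were Fads1 in ACLY KO and in DKO1 against ACLY KO with both (0.078 and 0.058, 0.072 and 0.087), Mbtps2 and Gpam in DKO1 against ACLY KO with equal totals (0.082 and 0.072) and Mxd4 in ACLY KO with quantile normalization (0.071). Fits on only the groups compared lost, among the list genes named in DKO1 against ACLY KO, Mbtps1, Mbtps2, Srebf2, Hlcs, Prkaa1, Fads1, Gpam and Dgat2 (adjusted p = 0.052 to 0.13) and, among the 8 genes, Acacb against ACSS2 KO, Mlycd against ACLY KO and Srebf1 against WT in DKO1 and Me1 in ACSS2 KO (adjusted p = 0.069, 0.060, 0.10 and 0.071), and Srebf1 in DKO1 against WT was also lost with equal totals and with quantile normalization (0.11 and 0.068). The ratio of Acacb to Acaca ranged over 1.23 to 1.63 (ACLY KO against WT), -0.13 to 0.27 (ACSS2 KO against WT) and -0.86 to 0.021 (DKO1 against ACLY KO) on the log2 scale.

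Equal totals moved the median of all genes by up to 0.11 against WT and to -0.16 in the interaction, and changed genes called higher and lower from 3023 and 3144 to 3823 and 2352 in ACLY KO against WT, from 1914 and 1397 to 2565 and 816 in ACSS2 KO against WT, and from 1524 and 1918 to 972 and 2491 in the interaction. Signs turned only for values not called with all libraries. With equal totals these were Me1 0.078, Srebf1 0.021, Mlx 0.060, Mid1ip1 0.013, Mlycd 0.074 and Scap 0.011 in ACLY KO against WT, Fasn 0.0029 in ACSS2 KO against WT, and Mlx at 0.017 in DKO1 against WT and -0.043 against ACLY KO. Quantile normalization gave Me1 0.10 and Mid1ip1 0.0021 in ACLY KO, Fasn 0.077 and Acacb -0.055 in ACSS2 KO, and Mlx -0.00059 in DKO1 against ACLY KO. Removing the length trend gave Acaca -0.037 and Acacb -0.044 (-0.069 with block) in ACSS2 KO against WT, Acaca 0.011 and Mid1ip1 -0.12 (-0.12 with block) in DKO1 against WT, Mlx -0.11 (-0.11 with block) against ACLY KO and Acaca 0.048 against ACSS2 KO. Over left-out libraries, Me1 ran from -0.054 to 0.0020, Mlx from -0.086 to 0.0049 and Mlycd from -0.085 to 0.076 in ACLY KO against WT. Acaca ran from -0.11 to 0.17 and Acacb from -0.018 to 0.22 in ACSS2 KO against WT. In DKO1 against WT Acaca ran from -0.45 to 0.29, Mlx from -0.20 to 0.047 and Mid1ip1 from -0.15 to 0.14. In DKO1 against ACLY KO Fasn ran from -0.027 to 0.66, Acaca from -0.69 to 0.051, Mlx from -0.15 to 0.098, Mid1ip1 from -0.056 to 0.24, Usf2 from -0.034 to 0.29 and Mlxip from -0.47 to 0.17. Acaca ran from -0.53 to 0.21 in DKO1 against ACSS2 KO and from -0.77 to 0.16 in the interaction.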
